A study of Mus musculus with 10 samples.

Results

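Psmd1, Ube2d2a (older symbol Ube2d2), Hspb2 and Eif4ebp2 are the genes of protein breakdown, protein folding and translation control followed here through muscle denervation. They were chosen by gene symbol in the array's annotation and make up 4 of the 89 genes that can be named on this array, which carries 2300 measured features in all. Each gene has 1 probe, printed as 4 replicate spots, so the account rests on 16 spots read on 10 arrays. At days 1, 3, 7 and 14, cDNA of a denervated tibialis anterior (TA) muscle was hybridised in competition with cDNA of the contralateral muscle, the one in the opposite limb. The TA is a fast-twitch muscle of the lower hindlimb. The time 0 arrays carry the same ratio and are taken as the background, so a ratio at time 0 is not read as an effect of denervation. The muscles came from CD1 mice, an outbred stock, at an age of 3 months. Samples of days 1, 3, 7 and 14 after denervation and a time 0 pair were each hybridised on 2 arrays with the dyes exchanged, here called the first and the reverse labelling. The labels name no surgical procedure, no number of animals and no pooling, and they do not say whether both arrays of a time point shared their RNA. SDs and p-values over arrays therefore cover array-to-array spread alone, and that spread may be technical.

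Each value is a log2 ratio, denervated divided by contralateral, so that a positive value means more RNA in the denervated muscle and 1 unit is a doubling. The value of a gene on an array is the median of its 4 spots. A ratio gives no expression level in either muscle, and the tissue could not be checked against its markers by level. Among markers listed for muscle fibres, 4 were measured (Neb, Scn4b, Slc25a4 and Trdn), and none were measured for satellite cells, fibroblasts, leukocytes, endothelium, Schwann cells, red blood cells or adipocytes. The fibre markers did not move one way: at day 14 Neb stood at 1.25 (adjusted p = 0.0177), Scn4b at -1.30 (adjusted p = 0.00110) and Slc25a4 at -0.68 (adjusted p = 0.0199), while Trdn passed at day 7 alone (-0.65, adjusted p = 0.0160) in a limma fit over all features. At time 0, the background, the means were 0.62 for Neb, -0.07 for Scn4b, -0.36 for Slc25a4 and 0.09 for Trdn, and none passed. Scn4b also passed at day 3 (-1.18) and day 7 (-1.09). The 3 probes of Trdn disagreed at day 7, at -1.06, -0.88 and -0.0074. In whole-muscle RNA, fewer cells of a type and less RNA per cell cannot be told apart. The spread of features differed between arrays, with a median absolute deviation between 0.168 (day 1) and 0.652 (day 14), each on the first labelling.

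Loss of the nerve makes muscle fibres shrink, because protein is broken down faster than it is made. Much of that breakdown runs through the ubiquitin-proteasome system, in which a conjugating enzyme and a ligase attach ubiquitin to a protein and the proteasome then unfolds and degrades it. Psmd1 encodes a large scaffold subunit in the base of the proteasome's regulatory particle. Ube2d2a encodes a ubiquitin-conjugating enzyme that works with many ligases. Hspb2 encodes a small heat shock protein of heart and skeletal muscle that binds the myotonic dystrophy protein kinase. Eif4ebp2 encodes a repressor of translation that binds the cap-binding factor eIF4E, and phosphorylation by the mTOR kinase releases it.

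The promoters of Psmd1 and Eif4ebp2 are shown because these genes stood on opposite sides of 0 at day 14. The sequences are those of RefSeq on build GRCm38.p6, from 250 bases before the transcription start, restricted to bases outside the gene's RefSeq span. That leaves 250 bases for Psmd1 (chr1:86064369-86064618, plus strand) and 129 bases for Eif4ebp2 (chr10:61452791-61452919, minus strand), each written 5′ to 3′ with motif matches in capitals.
Psmd1 promoter: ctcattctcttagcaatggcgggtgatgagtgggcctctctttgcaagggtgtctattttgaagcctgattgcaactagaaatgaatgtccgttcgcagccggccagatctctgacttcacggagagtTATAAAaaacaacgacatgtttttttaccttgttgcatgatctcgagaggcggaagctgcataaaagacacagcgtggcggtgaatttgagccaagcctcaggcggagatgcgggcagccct
Eif4ebp2 promoter: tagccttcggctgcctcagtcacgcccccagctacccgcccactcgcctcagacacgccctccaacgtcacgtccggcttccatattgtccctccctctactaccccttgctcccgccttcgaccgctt
Both windows of 250 bases were searched on both strands for a CCAAT box (CCAAT), the core of the antioxidant response element (TGACNNNGC), a forkhead box O motif (GTAAACA), an E-box (CANNTG), a pair of heat shock element units (GAANNTTC) and a TATA box (TATAAA). One match was found, a TATAAA from position -122 to -117 relative to the start of Psmd1, and 12.4% of 32851 mouse promoter windows of that length hold this motif. The other motifs are held by 33.8% (CCAAT), 10.2% (TGACNNNGC), 3.17% (GTAAACA), 66.2% (CANNTG) and 6.69% (GAANNTTC) of those windows. A match is a run of letters and not a measured binding site. The Psmd1 window had a GC content of 49.6% and that of Eif4ebp2 70.0%.

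Of the genes followed, Psmd1 was the one that passed the test at any time point, and it did so at day 14 with more RNA in the denervated muscle. Given as the first and then the reverse labelling, its log2 ratios were 0.12 and 0.18 (time 0), 0.15 and -0.19 (day 1), -0.002 and 0.15 (day 3), 0.24 and 0.002 (day 7), and 0.77 and 0.45 (day 14). Up to day 7 the values lay between -0.19 and 0.24, and both arrays of day 14 lay above all arrays of the earlier time points. The day 14 mean was 0.61 ± 0.23 (SD, n = 2 arrays), which is 1.52 times the contralateral level, and all 8 spots of that day were above 0.

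The test was a limma fit over all 2300 features with the 10 arrays as separate samples and 1 coefficient per time point, and p-values were adjusted over all features by Benjamini-Hochberg with a threshold of 0.05. At day 14 Psmd1 was higher in denervated than in contralateral muscle with an adjusted p of 0.0373 (standard error 0.14, 95% interval 0.27 to 0.94). That call is against a ratio of 0. Against time 0, the background, the difference was 0.46 and did not pass in the same fit (adjusted p = 0.292). At day 14, 1 of the 4 genes passed against 0, and over all features 14.3% passed in either direction and 8.74% with higher values. That is 201 features higher and 128 lower, against 239 and 95 with print blocks centred and 13 and 2 with arrays scaled. With 4 genes, a single call is close to that background and is not a result about the group. By size Psmd1 ranked 452 from the top of 2300 features at day 14. Without the first labelling of day 14 the mean was 0.45 (adjusted p = 0.186), and without the reverse labelling it was 0.77 (adjusted p = 0.0566). The spread of arrays differed between days, and with all arrays scaled to the same spread Psmd1 stood at 0.41 (adjusted p = 0.366).

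Psmd1 was printed in a block of the slide whose median also stood above 0 at day 14. The array is read as 16 print blocks of 576 spots, and Psmd1 lies in block 12. The median of that block was 0.27 on the first labelling of day 14 and 0.16 on the reverse labelling, the second highest of 16 blocks on both. With each block centred on its own median, Psmd1 stood at 0.39 ± 0.14 at day 14 (SD, n = 2, adjusted p = 0.0876) and no longer passed. Within its block it ranked 30 of 144 features from the top on the first labelling and 48 on the reverse one.

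**Figure D1:**
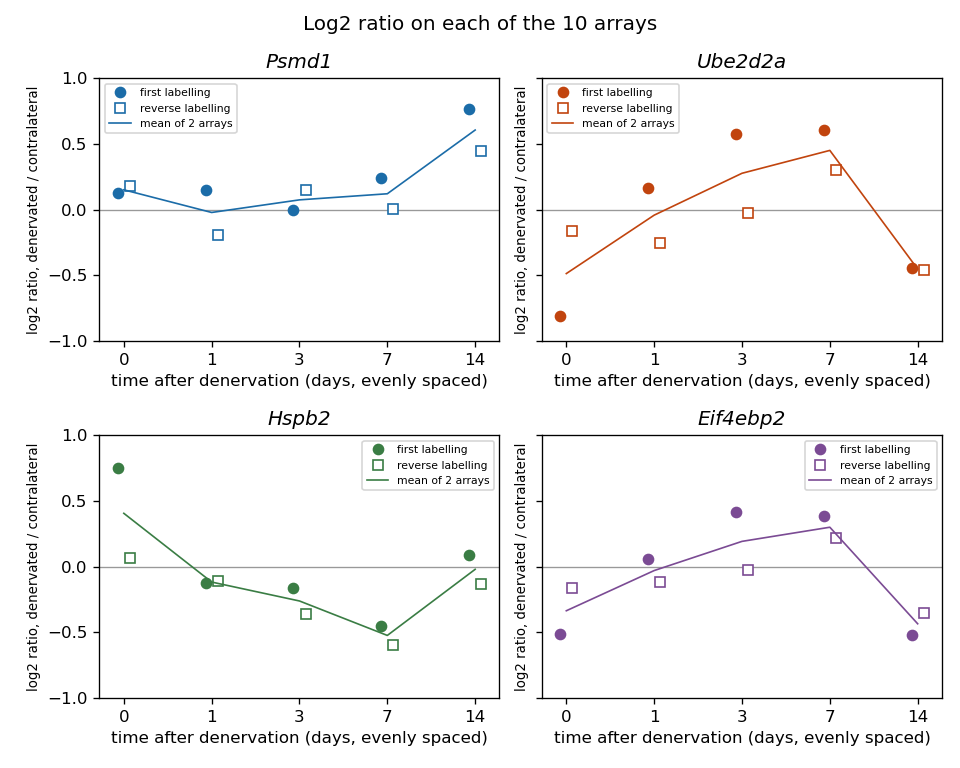
Log2 ratio of denervated over contralateral muscle (y axis) at time 0 and days 1, 3, 7 and 14 (x axis, evenly spaced) for the 4 genes. Filled circles are the first labelling, open squares the reverse labelling and lines the mean of the 2 arrays; Psmd1 is highest at day 14 (0.77 and 0.45), while Ube2d2a and Eif4ebp2 trace similar curves and Hspb2 is lowest at day 7 (-0.45 and -0.60).

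Ube2d2a, the ubiquitin-conjugating enzyme, stood below 0 at time 0, the background, and at day 14, and above 0 at day 7. It did not pass the test at any time point. In the same layout its log2 ratios were -0.81 and -0.16 (time 0), 0.17 and -0.25 (day 1), 0.58 and -0.02 (day 3), 0.60 and 0.30 (day 7), and -0.45 and -0.46 (day 14). Both arrays of time 0 and of day 14 were below 0 and both of day 7 above it, while days 1 and 3 had 1 array on each side. Time 0 averaged -0.49 ± 0.46, day 1 -0.04 ± 0.30, day 3 0.28 ± 0.43, day 7 0.45 ± 0.21 and day 14 -0.45 ± 0.01 (SD, n = 2 each). In the limma fit the adjusted p was 0.360, 1.00, 0.496, 0.223 and 0.212 in the same order.

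The spots of Ube2d2a agreed closely within an array, with a median span of 0.19 log2 units between the lowest and highest of the 4. All 8 spots were below 0 at time 0, all 8 were above 0 at day 7 and all 8 were below 0 at day 14. The pooled SD between the arrays of a time point was 0.32, the highest of the 4 genes, although the arrays of day 14 lay close together at -0.45 and -0.46. At day 3 the first labelling gave 0.58 and the reverse labelling -0.02. Ube2d2a belongs to a family of nearly identical conjugating enzymes, and cross-hybridisation of their RNA to the spotted cDNA was not tested.

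Relative to the other features, Ube2d2a stood furthest out at time 0 and not at a later day. There its mean ranked 55 from the bottom of 2300 features, with 2.35% of features below it, against 20.1% of features below it at day 14, where the ratio was nearly the same. At 0.94, the difference between day 7 and time 0 was the largest between any of the time points for this gene (95% interval 0.19 to 1.69, adjusted p = 0.103). With print blocks centred this difference was 0.61 (adjusted p = 0.173). It passed in a fit restricted to the 1285 features with replicate spots no more than 2 log2 units apart on any array (adjusted p = 0.0220). In that fit 553 of the 1285 features passed for this difference, against 252 of 2300 in the fit over all features. The day 14 value differed from time 0 by 0.03 (95% interval -0.72 to 0.79).

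Hspb2, the small heat shock protein, stood below 0 on 7 of the 8 arrays after time 0, with its lowest values at day 7. Its log2 ratios were 0.75 and 0.06 (time 0), -0.12 and -0.11 (day 1), -0.16 and -0.36 (day 3), -0.45 and -0.60 (day 7), and 0.09 and -0.13 (day 14). The time 0 arrays lay above 0, both arrays of days 1, 3 and 7 lay below it, and those of day 14 fell on either side. Time 0 averaged 0.41 ± 0.48, day 1 -0.12 ± 0.01, day 3 -0.26 ± 0.14, day 7 -0.52 ± 0.11 and day 14 -0.02 ± 0.16 (SD, n = 2 each).

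At day 7 the Hspb2 ratio corresponds to 0.696 times the contralateral level, and it did not pass after adjustment in the limma fit (95% interval -0.94 to -0.10, adjusted p = 0.104). Averaging the 4 spots instead of taking their median gave -0.70, which passed (adjusted p = 0.0299). On the first labelling of day 7 the 4 spots ran from -2.38 to -0.08, the widest span of any of the 4 genes on any array. On the reverse labelling they ran from -0.82 to -0.25, and all 8 spots of the day were below 0.

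The difference of Hspb2 between day 7 and time 0 was -0.93 (95% interval -1.52 to -0.34, adjusted p = 0.0632), which carries the wide spread of time 0. Time 0 differed between its arrays, with 3 of 4 spots above 0 on the first labelling and 2 of 4 on the reverse one. Without the first labelling of time 0 the difference was -0.59 (adjusted p = 0.181), and without the reverse labelling it was -1.27 (adjusted p = 0.0335). The difference passed when the 4 spots were averaged (-1.01, adjusted p = 0.0368). It also passed in a fit without spots holding the value that recurs across an array (-0.93, adjusted p = 0.0480). No Hspb2 spot held that value, so the difference itself was unchanged. The set of features, then 2058, was smaller, and the unadjusted limma p moved from 0.00819 to 0.00677. Centring the print blocks gave -0.86 (adjusted p = 0.112).

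**Figure D2:**
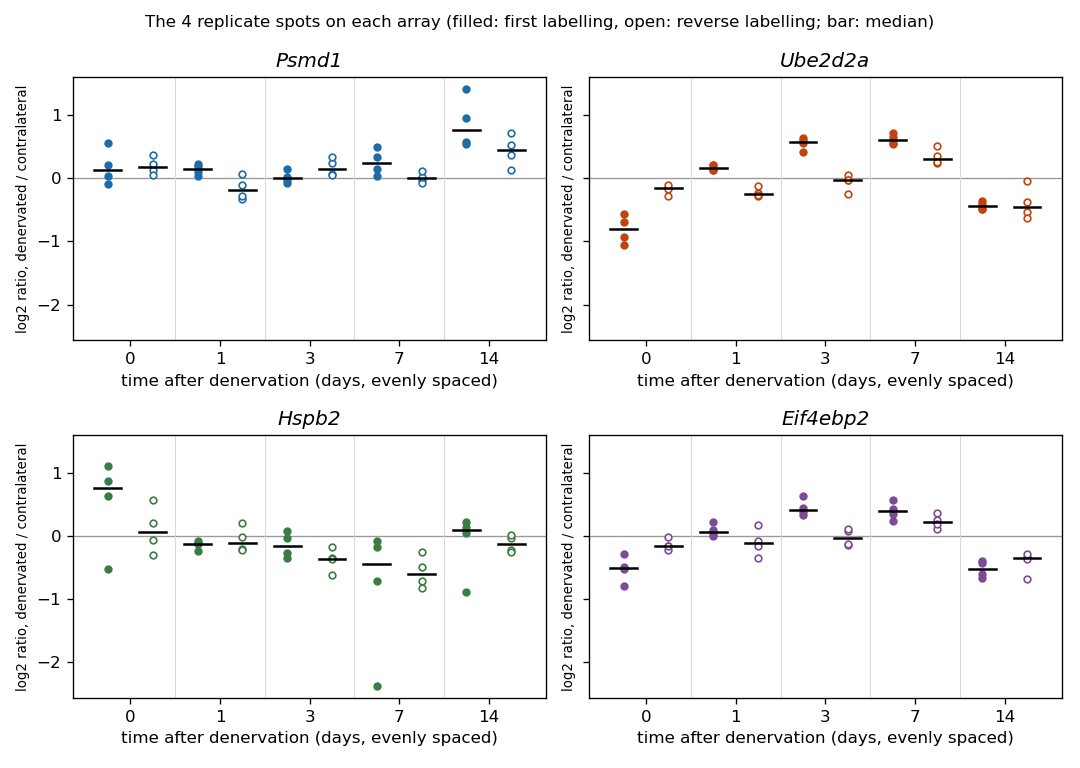
The 4 replicate spots of each gene on each array, as log2 ratio of denervated over contralateral muscle (y axis), by day (x axis, evenly spaced). Filled points are the first labelling, open points the reverse labelling and bars the median; the spots of Ube2d2a lie close together (median span 0.19), while Hspb2 has 1 spot at -2.38 on the first labelling of day 7.

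Eif4ebp2, the translation repressor, stood below 0 at time 0 and day 14 and above 0 at day 7, like Ube2d2a and over a narrower range. Its log2 ratios were -0.51 and -0.16 (time 0), 0.06 and -0.12 (day 1), 0.41 and -0.03 (day 3), 0.39 and 0.22 (day 7), and -0.52 and -0.35 (day 14). The labellings shared their sign at time 0, day 7 and day 14 and had opposite signs at days 1 and 3. Time 0 averaged -0.34 ± 0.25, day 1 -0.03 ± 0.12, day 3 0.19 ± 0.31, day 7 0.30 ± 0.12 and day 14 -0.43 ± 0.12 (SD, n = 2 each).

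The day 14 ratio of Eif4ebp2 equals 0.740 times the contralateral level, with all 8 spots below 0, and it did not pass in the limma fit (95% interval -0.80 to -0.07, adjusted p = 0.108). A further fit was restricted to the 1285 features with replicate spots no more than 2 log2 units apart on any array. There the day 14 ratio passed (adjusted p = 0.0453). In that fit 483 of the 1285 features passed at day 14, against 329 in the fit over all features. The difference between day 14 and day 7 was -0.74 (95% interval -1.26 to -0.21, adjusted p = 0.110). It passed in the restricted fit (adjusted p = 0.0333). There 311 of the 1285 features passed for this difference, against 18 in the fit over all features. With print blocks centred the difference was -0.40 (adjusted p = 0.229). At time 0, the background, the ratio was 0.793 times the contralateral level, and day 14 differed from time 0 by -0.10 (95% interval -0.62 to 0.42).

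Ube2d2a and Eif4ebp2 followed one another array by array. Their log2 ratios had the same sign on 10 of 10 arrays, with a root mean square difference of 0.15 and no array apart by more than 0.30. Among the other 2299 features, Eif4ebp2 ranked 19 in closeness to Ube2d2a, where the median feature differed by 0.67. Both probes were printed in block 1 of the slide, with 1 other named gene, Mef2a. The median of that block was the highest of 16 on the first labelling of day 3 (0.26) and of day 7 (0.46), and it lay between -0.16 and 0.03 on the other arrays.

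With the print blocks centred, the curves of Ube2d2a and Eif4ebp2 stayed low at both ends and came nearer to 0 at day 7. Ube2d2a then stood at -0.40 at time 0, 0.21 at day 7 and -0.36 at day 14, and Eif4ebp2 at -0.25, 0.06 and -0.34. The day 7 arrays of Eif4ebp2 then lay on opposite sides of 0, at -0.07 and 0.19. The part of the block in the day 3 and day 7 values beyond this centring was not tested. Features close to them also lay in other blocks: 55 features were within 0.2 of Ube2d2a by root mean square difference, 11 of them in block 1, and 107 were within 0.2 of Eif4ebp2, 10 of them in block 1. That is 7.69% and 6.99% of the other features in block 1, against 2.04% and 4.50% of those in other blocks. For Psmd1, 14 features were within 0.2, and 6 of them lay in its own block 12, which is 4.23% of the other features there against 0.371% of those elsewhere. For Hspb2 it was 11 features, 1 of them in its block.

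The shape shared by both genes, a mean below 0 at time 0 and day 14 and above 0 at days 3 and 7, was held by 377 of 2300 features (16.4%) and by 26 of the 89 named genes (29.2%). By the smallest root mean square difference over the 10 arrays, the named genes most like Ube2d2a were Atp2b1 (0.10), Eif4ebp2 (0.15) and Hcfc2 (0.17). For Eif4ebp2 they were Atp2b1 (0.12), Qtrt2 (0.14) and Ube2d2a (0.15). With print blocks centred, Hcfc2 fell to rank 25 of 88 named genes for Ube2d2a, and Qtrt2 to rank 24 for Eif4ebp2. Atp2b1 then ranked 3 for both. Atp2b1 encodes a calcium pump of the plasma membrane and lies in block 2.

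Psmd1 and Hspb2 had no such partner among the genes followed here. Psmd1 differed from Ube2d2a by a root mean square of 0.62, from Eif4ebp2 by 0.56 and from Hspb2 by 0.49, and Hspb2 differed from Ube2d2a by 0.75. The named gene most like Psmd1 was Herc1, a giant HECT-type ubiquitin ligase in the same print block, at 0.20, followed by MBNL2 and Tmem243 at 0.24 each. For Hspb2 the closest were Nek7 (0.25), Abl2 (0.26) and Trdn (0.28). MBNL2, the annotation's spelling, also lies in block 12.

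**Figure D3:**
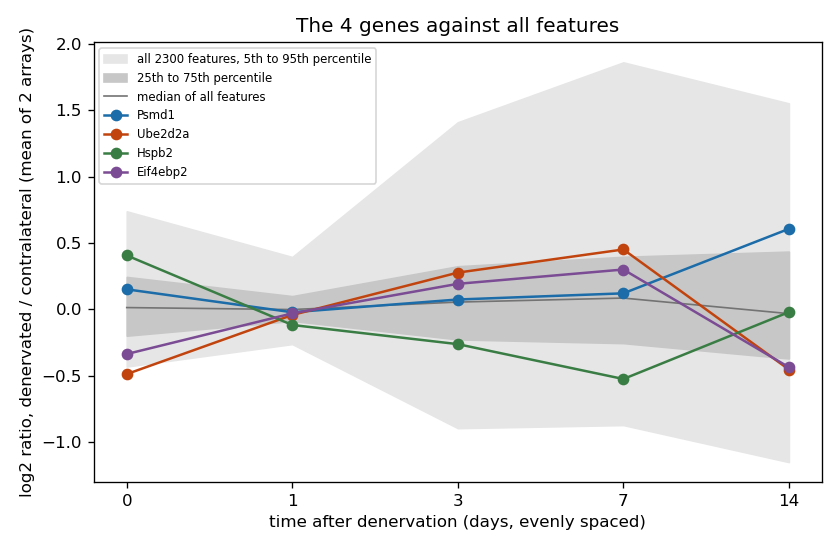
Mean log2 ratio of the 2 arrays (y axis) by day (x axis, evenly spaced) for the 4 genes, over the 5th to 95th and 25th to 75th percentiles of all 2300 features (grey bands) and their median (grey line). At day 14 Psmd1 (0.61) lies above the central band, and Ube2d2a (-0.45) and Eif4ebp2 (-0.43) lie below it, while all 4 are inside the outer band on days 1, 3, 7 and 14.

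Against the whole array the ratios of the 4 genes were modest in size. They stayed inside the range from the 5th to the 95th percentile of all features at days 1, 3, 7 and 14, which was -0.89 to 1.41 at day 3, -0.87 to 1.86 at day 7 and -1.15 to 1.55 at day 14. At time 0 that range was -0.43 to 0.74, and Ube2d2a lay below it at -0.49. The standard deviation of the 5 time-point means was 0.24 for Psmd1, 0.42 for Ube2d2a, 0.34 for Hspb2 and 0.32 for Eif4ebp2, and 23.7%, 58.2%, 43.3% and 39.4% of features had a smaller one.

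At the remaining time points none of the 4 genes passed in the limma fit. At time 0 that was 0 of 4, with 0 of 4 at an unadjusted p under 0.05, where 0% of all features passed. At day 1 it was 0 of 4 with 0 unadjusted, where 0.0435% of features passed. Day 3 gave 0 of 4 with 0 unadjusted, where 7.96% passed, and day 7 gave 0 of 4 with 1 unadjusted (Hspb2), where 11.6% passed and 688 of 2300 features had an unadjusted p under 0.05. The median ratio of the 4 genes was -0.09, -0.04, 0.13, 0.21 and -0.23 from time 0 to day 14, against 0.01, -0.00, 0.06, 0.09 and -0.03 for all features.

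Differences between days did not pass for any of the genes. In the limma fit 0 of the 40 comparisons (4 genes, 10 pairs of time points) had an adjusted p under 0.05. An unadjusted p under 0.05 was found in 12 of the 40 (30.0%). Over all features that share was 20.0% on average over the 10 pairs, which is the matching figure, and the 4 genes stood above it. Single pairs ran from 4.96% (day 1 minus time 0) to 31.2% (day 7 minus time 0) of features. The 40 comparisons reuse the same genes and arrays, and the gap between 30.0% and 20.0% was not tested. Over all features the share that passed was 0% for day 1, 6.96% for day 3, 11.0% for day 7 and 4.0% for day 14, each against time 0. It was 1.04% for day 3 minus day 1, 3.52% for day 7 minus day 1, 0.565% for day 7 minus day 3, 3.39% for day 14 minus day 1, 7.52% for day 14 minus day 3 and 0.783% for day 14 minus day 7. Ordered by mean ratio, Psmd1 ran from day 1 over days 3, 7 and time 0 to day 14, Ube2d2a and Eif4ebp2 each placed time 0 and day 14 lowest and day 7 highest, and Hspb2 ran from day 7 over days 3, 1 and 14 to time 0. No neighbours in these orders differed beyond their spread by this test. For Psmd1 the difference between day 14 and day 7 was 0.49 (adjusted p = 0.198), and that between day 14 and time 0 was 0.46 (95% interval -0.02 to 0.93, adjusted p = 0.292).

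With both arrays of a time point counted as 1 replicate, only quantities taken over several days could be tested, and no gene passed. None of these tests a single day, and days of opposite sign cancel in the mean. The mean of days 1 to 14 was 0.20 ± 0.28 for Psmd1, 0.06 ± 0.40 for Ube2d2a, -0.23 ± 0.22 for Hspb2 and 0.01 ± 0.33 for Eif4ebp2 (SD, n = 4 time points). Psmd1 was above 0 on 6 of the 8 arrays after time 0, Hspb2 below 0 on 7, and Ube2d2a and Eif4ebp2 were split 4 to 4. The slopes on log2(day + 1) over 5 time points were 0.11, 0.06, -0.13 and 0.02 in the same order of genes, with standard errors of 0.08, 0.13, 0.10 and 0.11. Days 7 and 14 minus days 1 and 3 gave 0.34, -0.12, -0.08 and -0.15. In each of these 3 limma tests 0 of the 4 genes passed and 0 had an unadjusted p under 0.05, while 0% of all features passed. The smallest adjusted p of any feature was 0.525 for the mean, 0.378 for the slope and 0.595 for late minus early. With no feature passing, these tests cannot set the 4 genes apart from the rest.

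**Figure D4:**
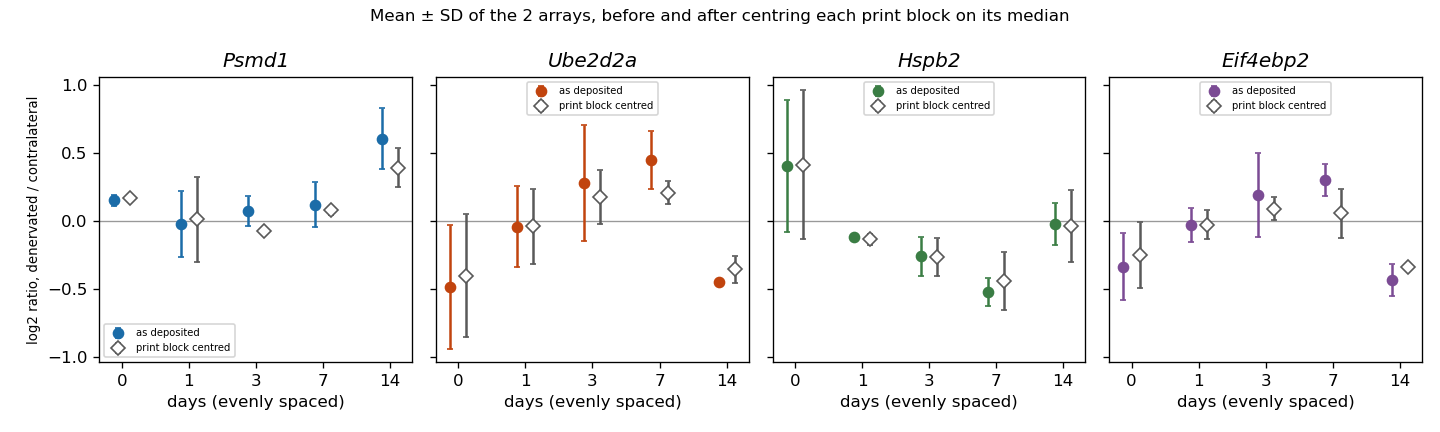
Mean ± SD of the 2 arrays (y axis, log2 ratio of denervated over contralateral muscle) by day (x axis, evenly spaced), as deposited (filled circles) and with every print block centred on its median (open diamonds). After centring, Psmd1 stands at 0.39 at day 14 (0.61 as deposited), Ube2d2a at 0.21 at day 7 (0.45 as deposited) and Hspb2 at -0.44 at day 7 (-0.52 as deposited).

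Other genes of the same processes were few on this array. From lists of proteasome, ubiquitin, chaperone, translation, autophagy and atrophy regulator genes, 7 more were measured, namely Herc1, Nedd4l, Usp40, Insr, Larp4b, Mef2a and Zbtb16. The proteasome list held no gene but Psmd1, the chaperone list none but Hspb2, and the autophagy list none. Of the 7, 1 passed with a higher value at day 3 (Larp4b), where 2.39% of all features did, and 1 at day 7 (Mef2a), where 4.43% did. In either direction 7.96% of all features passed at day 3 and 11.6% at day 7. At time 0, day 1 and day 14, 0 of the 7 passed, where 0%, 0.0435% and 14.3% of all features did.

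Besides Ube2d2a, the ubiquitin list held the ligases Herc1 and Nedd4l and the deubiquitinating enzyme Usp40, and none of these passed in the limma fit. Herc1 stayed between -0.02 ± 0.14 (day 1) and 0.22 ± 0.26 (day 14) on the log2 scale (SD, n = 2 each). After centring of block 12, which it shares with Psmd1, its day 14 value was 0.001. Nedd4l stood at 0.46 ± 0.05, 0.29 ± 0.20, 0.26 ± 0.31, -0.14 ± 0.04 and 0.29 ± 0.20 from time 0 to day 14, so that day 7 alone was negative on both arrays. Usp40 stood at -0.22 ± 0.21, 0.13 ± 0.11, 0.28 ± 0.12, 0.14 ± 0.24 and 0.04 ± 0.17.

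Larp4b, an RNA-binding protein listed with translation, had means of the same sign as Eif4ebp2 at time 0 and days 3, 7 and 14. That pattern was held by 16.4% of all features and 29.2% of named genes. The mean of Larp4b was highest at day 3 and that of Eif4ebp2 at day 7. From time 0 to day 14 Larp4b stood at -0.27 ± 0.29, 0.12 ± 0.04, 0.65 ± 0.14, 0.24 ± 0.24 and -0.45 ± 0.08 (SD, n = 2 each). Its day 14 value did not pass (adjusted p = 0.0850). Insr, the insulin receptor, did not pass at day 7, where the first labelling gave 3.52 and the reverse labelling 0.49. Mef2a, a muscle transcription factor printed in block 1 beside Ube2d2a and Eif4ebp2, stood at 0.92 ± 0.10 at day 7 (adjusted p = 0.0368) and at 0.68 after its block was centred. Zbtb16, a transcriptional repressor, had -2.15 and 2.47 on the arrays of day 14 and did not pass.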

How the data were processed

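Per the labels' protocols, cDNA was primed with oligo-dT on 8 µg of total RNA with Cy3 or Cy5, images were read in QuantArray, and the authors applied global and lowess normalization in SNOMAD. The deposited log2 ratios are, per the labels, positive on all 10 arrays where denervated muscle had more RNA, and signs were kept. Upstream background correction and spot filters are not stated, and signal over background is unknown. Whether values were centred further is not stated either, and array medians over features ran from -0.14 to 0.09.

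The platform annotation named 388 of 9216 spots, with symbols updated through a mouse RefSeq table. Named probes recurred as 4 spots within 1 of 16 print blocks. Extending that layout to unnamed spots, an inference, gave 2304 probes and, with probes of a gene averaged, 2300 features. On each array 1 value recurred exactly in 91 to 745 spots, and no spot of the 4 genes held it.

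Tests used limma (version 3.58.1, R 4.3.3), two-sided, with Benjamini-Hochberg adjustment over all features, and the code was tested on simulated data. The 4 genes, the gene lists and the alternatives were chosen with earlier results of these data known. The rule for named genes took the 4 genes, the 3 named genes closest to each, and every measured gene of the lists. The pairs day 7 minus day 1, day 14 minus day 1 and day 14 minus day 3, the motifs and the limit of 0.2 for closeness were added after the values had been seen.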

Additional observations from a re-analysis of the deposited data

Results flagged for a closer look

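For 7 differences between time points, both arrays of one time point lay on one side of 0 and both arrays of the other lay on the opposite side. None of them passed the limma test of the difference itself, and signs on 2 arrays a side are a weak criterion. Against time 0, Hspb2 differed by -0.52 at day 1 (adjusted p = 0.747), by -0.67 at day 3 (adjusted p = 0.126) and by -0.93 at day 7 (adjusted p = 0.0632). Day 7 minus time 0 was 0.94 for Ube2d2a (adjusted p = 0.103) and 0.64 for Eif4ebp2 (adjusted p = 0.109). With print blocks centred, these were 0.61 (adjusted p = 0.173) and 0.31 (adjusted p = 0.290). The day 7 arrays of Eif4ebp2 then stood at -0.07 and 0.19, on opposite sides of 0. Day 14 minus day 7 was -0.90 for Ube2d2a (adjusted p = 0.147) and -0.74 for Eif4ebp2 (adjusted p = 0.110). Centring the print blocks gave -0.57 (adjusted p = 0.238) and -0.40 (adjusted p = 0.229). Ube2d2a and Eif4ebp2 share print block 1, whose median on the first labelling of day 7 was 0.46. No time point had the 4 samples that a check for a single outlying array needs.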

How the results depend on the processing

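Outside arrays left out, 414 of 437 member values kept their direction and their side of the threshold, 12 changed sign, 2 lost and 9 gained a call. The number of the 4 genes called at day 14 was 0 with print blocks centred and 0 with arrays scaled, against 1. At day 7 it was 1 with the mean of the 4 spots, against 0. For day 7 minus time 0 it was 1 with the mean of the spots and 1 with repeated spot values left out, against 0. Over all features of the main fit, 11.6% passed at day 7 and 11.0% for day 7 minus time 0. With 4 genes, 1 call is close to that background and is not a result about the group. With spots within 2 log2 units Hspb2 dropped out, and 6 gains were Eif4ebp2 and Ube2d2a at adjusted p from 0.0220 to 0.0453. In that fit of 1285 features, 483 passed at day 14 and 311 for day 14 minus day 7. Days 3 and 7 minus time 0 had 569 and 553. The labelling orientation as a replicate block changed no call of the genes, and Psmd1 at day 14 had an adjusted p of 0.0429.

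The values that changed sign had not passed, and the cause was not tested. Centring arrays gave 0.031 for Hspb2 at day 14. Centring print blocks gave 0.013 and -0.072 for Psmd1 at days 1 and 3, -0.085 for its day 3 minus day 1, -0.033 for Eif4ebp2 at day 7 minus day 3, -0.054 for its mean of days 1 to 14, -0.0070 for its slope and -0.0026 for the Ube2d2a mean. Scaling gave 0.076 for Eif4ebp2 at day 14 minus time 0 and -0.0030 for Psmd1 at day 7 minus day 3. Without time 0 the slopes of Ube2d2a and Eif4ebp2 were -0.10 and -0.11.

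With 1 array left out at a time, in fits that assume a lone array varies like the others, the genes called at day 14 numbered 0 to 0, and 0 to 1 for days 3 and 7 minus time 0, the 1 being Hspb2 without the reverse labelling of time 0. Psmd1 ranged from -0.19 to 0.15 at day 1, -0.0024 to 0.15 at day 3, -0.15 to 0.0011 for day 3 minus time 0, -0.15 to 0.089 for day 7 minus time 0, -0.076 to 0.27 for day 3 minus day 1 and -0.073 to 0.17 for day 7 minus day 3. Ube2d2a ranged from -0.25 to 0.17 at day 1, -0.025 to 0.58 at day 3, -0.29 to 0.36 for day 14 minus time 0, -0.13 to 0.48 for day 7 minus day 3, -0.017 to 0.13 for its mean, -0.0044 to 0.13 for its slope and -0.27 to 0.033 for late minus early. Eif4ebp2 ranged from -0.12 to 0.059 at day 1, -0.027 to 0.41 at day 3, -0.28 to 0.077 for day 14 minus time 0, -0.11 to 0.33 for day 7 minus day 3, -0.047 to 0.063 for its mean and -0.019 to 0.053 for its slope. Hspb2 ranged from -0.13 to 0.090 at day 14.

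Over the features of each fit, the calls ranged with the setting (arrays not left out) from 15 to 483 at day 14, against 329. They ranged from 60 to 441 at day 7, against 267, and from 98 to 407 at day 3, against 183. The lower end came with arrays scaled, over 2300 features. The upper end came with spots within 2 log2 units, over 1285 features, also for the differences, time 0 and day 1 below. These counts are therefore not parts of the same total. For days 3, 7 and 14 minus time 0 they ranged from 61 to 569, 21 to 553 and 0 to 209, against 160, 252 and 92. For day 3 minus day 1, day 7 minus day 3 and day 14 minus day 7 they ranged from 14 to 75, 0 to 56 and 0 to 311, against 24, 13 and 18. Up to 10 were called at time 0 and 5 at day 1. Single arrays also moved these counts. Day 3 had 36 without its first and 53 without its reverse labelling, and day 7 had 85 and 168. Day 14 had 327 and 261. Day 3 minus time 0 had 14 without the first labelling of time 0 and 8 and 26 without the first and the reverse one of day 3. Day 7 minus time 0 had 19 without the first labelling of time 0 and 64 and 134 without those of day 7. Day 14 minus time 0 had 40 without the first labelling of time 0 and 231 without that of day 14. Day 14 minus day 7 had 10 and 56 without the labellings of day 7 and 191 and 96 without those of day 14. Day 7 minus day 3 had 53 without the reverse labelling of day 7, and day 3 minus day 1 had 3 and 0 without those of day 1 and 12 without the first of day 3. Time 0 had 5 and 10, day 1 had 0 without its reverse labelling, and day 1 minus time 0 had 4 without the first labelling of time 0. No filter on dim spots could be run, since the values used are ratios, and each gene had 1 probe, so no probe could be compared with another.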
